A study of Mus musculus with 11 samples.

Results

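The 8 Hedgehog pathway genes Smo, Ptch1, Boc, Hhip, Sufu, Gli1, Gli2 and Gli3 were examined by name among 21627 protein-coding genes of the mouse. For each gene, peaks were taken from all 11 deposited CUT&RUN lists where they lay within the gene or within 5 kb of its ends, and peaks between 5 and 25 kb were noted separately. CUT&RUN uses an antibody to tether a nuclease where its target sits on the DNA of permeabilised cells, and the fragments cut free are sequenced. The cells were untreated mouse tumour-derived lines grown with bFGF and EGF on Matrigel. Line M00002 gave libraries for HA, p65, H3K27ac with the antibodies ac4729 and ac647, and control IgG. Line M00001 gave libraries for HA, Cbp, p300, Rpb1 with antibodies named S2 and S5, and control IgG. The HA libraries are described as HA-tagged CRfus1, read here as the ZFTA-RELA fusion of the series title, and sample titles of both lines carry the name Fus1. The sources used here do not say what drives the fusion in these cells. No line without the fusion was analysed here. Each line carries its own mouse identifier, and every antibody was used once per line, so no value has a replicate and no difference between lines or antibodies could be tested.

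Hedgehog ligands bind the receptor Ptch1, which otherwise holds the membrane protein Smo inactive at the primary cilium. Active Smo frees the Gli transcription factors from Sufu, after which Gli2 acts mainly as an activator, while processed Gli3 acts mainly as a repressor. Gli1, Ptch1 and Hhip are themselves targets of the pathway, and Boc is a coreceptor that helps the ligand bind. In the developing brain the pathway patterns neural progenitors and sustains their division. H3K27ac marks active promoters and enhancers, Cbp and p300 are acetyltransferases that deposit it, and Rpb1 is the largest subunit of RNA polymerase II. p65 is the product of Rela, and the fusion named in the title contains RELA sequence. Whether the p65 antibody also bound the fusion was not tested.

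HA peaks of M00002 covered the annotated starts of Smo and Gli3, an HA peak of M00002 ended 0.041 kb before that of Sufu, and an H3K27ac peak without HA covered that of Gli2. Those promoter sequences are shown because a peak lies at or just before the start site in each. They are RefSeq sequences of GRCm38.p6, the assembly behind mm10, from 250 bases before to 50 bases after the start, 5′ to 3′ on the strand of the gene. They lie at chr6:29735247-29735546 (plus strand, Smo), chr19:46396646-46396945 (plus strand, Sufu), chr13:15463473-15463772 (plus strand, Gli3) and chr1:119053570-119053869 (minus strand, Gli2). Capitals mark the bases inside the HA peak of M00002 for Smo, Sufu and Gli3, and inside the ac4729 peak of M00002 for Gli2.
Smo: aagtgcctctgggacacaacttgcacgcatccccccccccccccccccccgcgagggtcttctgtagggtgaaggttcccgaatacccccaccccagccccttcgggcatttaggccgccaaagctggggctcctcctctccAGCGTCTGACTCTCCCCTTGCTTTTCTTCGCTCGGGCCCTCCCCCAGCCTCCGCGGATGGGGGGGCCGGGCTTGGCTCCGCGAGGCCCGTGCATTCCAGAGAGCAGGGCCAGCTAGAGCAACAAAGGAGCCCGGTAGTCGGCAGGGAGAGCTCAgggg
Sufu: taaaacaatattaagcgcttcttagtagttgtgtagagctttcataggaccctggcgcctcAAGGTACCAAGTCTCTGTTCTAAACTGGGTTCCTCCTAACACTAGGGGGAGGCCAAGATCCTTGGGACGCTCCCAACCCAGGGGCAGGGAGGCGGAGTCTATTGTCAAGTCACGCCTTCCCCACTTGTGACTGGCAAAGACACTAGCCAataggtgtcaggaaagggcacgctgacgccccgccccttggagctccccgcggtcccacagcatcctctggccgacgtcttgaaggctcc
Gli3: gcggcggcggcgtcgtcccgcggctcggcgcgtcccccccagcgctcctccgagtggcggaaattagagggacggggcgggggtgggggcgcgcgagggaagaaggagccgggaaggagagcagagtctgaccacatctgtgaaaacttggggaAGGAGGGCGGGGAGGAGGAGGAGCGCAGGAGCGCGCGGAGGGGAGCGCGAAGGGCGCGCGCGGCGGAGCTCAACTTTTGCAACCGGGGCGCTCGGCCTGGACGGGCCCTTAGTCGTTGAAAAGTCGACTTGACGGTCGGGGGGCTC
Gli2: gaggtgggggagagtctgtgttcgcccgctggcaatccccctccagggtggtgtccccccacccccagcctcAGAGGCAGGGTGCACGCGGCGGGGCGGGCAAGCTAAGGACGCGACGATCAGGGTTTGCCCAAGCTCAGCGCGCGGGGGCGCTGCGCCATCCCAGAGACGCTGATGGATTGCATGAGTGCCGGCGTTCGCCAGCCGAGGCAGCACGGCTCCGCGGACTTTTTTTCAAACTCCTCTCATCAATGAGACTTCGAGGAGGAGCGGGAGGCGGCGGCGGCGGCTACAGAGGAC
The HA peak took up 154 of the 300 bases at Smo, 149 at Sufu and 146 at Gli3, and the ac4729 peak took up 228 bases at Gli2. The Gli core motif GACCACCCA, searched on both strands, was in 0 of the 6 member promoters at hand and in 83 of 32851 promoters of the same length (0.253%). The kappaB motif was in 0 of the 6 and in 1480 of all (4.51%).

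The lists held 1592 to 29937 peaks on chromosomes 1 to 19 and X, with the fewest in IgG of M00001 and the most in HA of M00002. Read counts are not part of the lists, which leaves depth unknown, and a missing peak is a peak not called at that depth. Of the neural progenitor and radial glia markers, 5 of 7 had H3K27ac peaks with both antibodies (Sox2, Nes, Sox9, Hes1 and Vim), beside 27.7% of all genes. With S2, which had peaks at 56.3% of all genes, 2 of these 7 had one. H3K27ac peaks with both antibodies were also at 3 of 5 leukocyte markers, Ptprc, Cd68 and Csf1r, 2 of 3 endothelial markers and 0 of 3 markers of other tissues. The part of other cell types in the results was not tested.

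HA peaks were found at nearly every member. In M00002 all members but Gli1 had an HA peak, 7 of 8 beside 50.2% of all protein-coding genes. In M00001 all but Ptch1 and Gli1 had one, 6 of 8 beside 22.8%. Peaks that overlapped IgG of the same line were then left out. The counts stayed at 7 of 8 in M00002 (49.7% of all genes) and 6 of 8 in M00001 (22.5%). The 6 genes Smo, Boc, Hhip, Sufu, Gli2 and Gli3 had such a peak in both lines, beside 19.9% of all genes. This last count fell to 2 (Gli3 and Sufu) when only peaks with a −log10 q of at least 5 were used. It was also 2 (Sufu and Smo) when only the 5 kb around each end was searched, and 1 (Sufu) among the 2000 peaks of highest fold in each list.

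p65, H3K27ac and Rpb1 peaks lay at 6 or 7 of the 8 members, and Cbp, p300 and IgG peaks at fewer. p65 peaks lay at 7 of 8 members, beside 33.5% of all genes. With a −log10 q of at least 2 they lay at 6 of 8, without Ptch1. H3K27ac peaks lay at 7 of 8 with ac4729 (50.9% of all genes), at 6 of 8 with ac647 (29.2%) and at 6 of 8 with both antibodies (27.7%). Rpb1 peaks were found at 6 of 8 with S5 (33.9%) and at 7 of 8 with S2 (56.3%). The 1 S5 peak of Sufu lay inside the neighbouring gene Actr1a, and S5 lay at 5 of 8 members with a 1 kb window. The 1 S5 peak of Gli2 was weak, with a fold of 2.93 and a −log10 q of 0.329. Cbp and p300 peaks were each found at 3 of 8 members, beside 13.1% and 15.8% of all genes. IgG peaks were found at Smo alone in each line, 1 of 8 beside 11.2% in M00002 and 1 of 8 beside 3.5% in M00001. Smo was the 1 member with a Cbp peak at a −log10 q of at least 2, since those of Hhip and Sufu were weaker. That Smo peak overlapped IgG of both lines, as did the single ac647 peak of Smo. Without peaks that overlapped IgG of either line, Cbp lay at 2 of 8 members (Sufu and Hhip) and ac647 at 5 of 8.

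**Figure D1:**
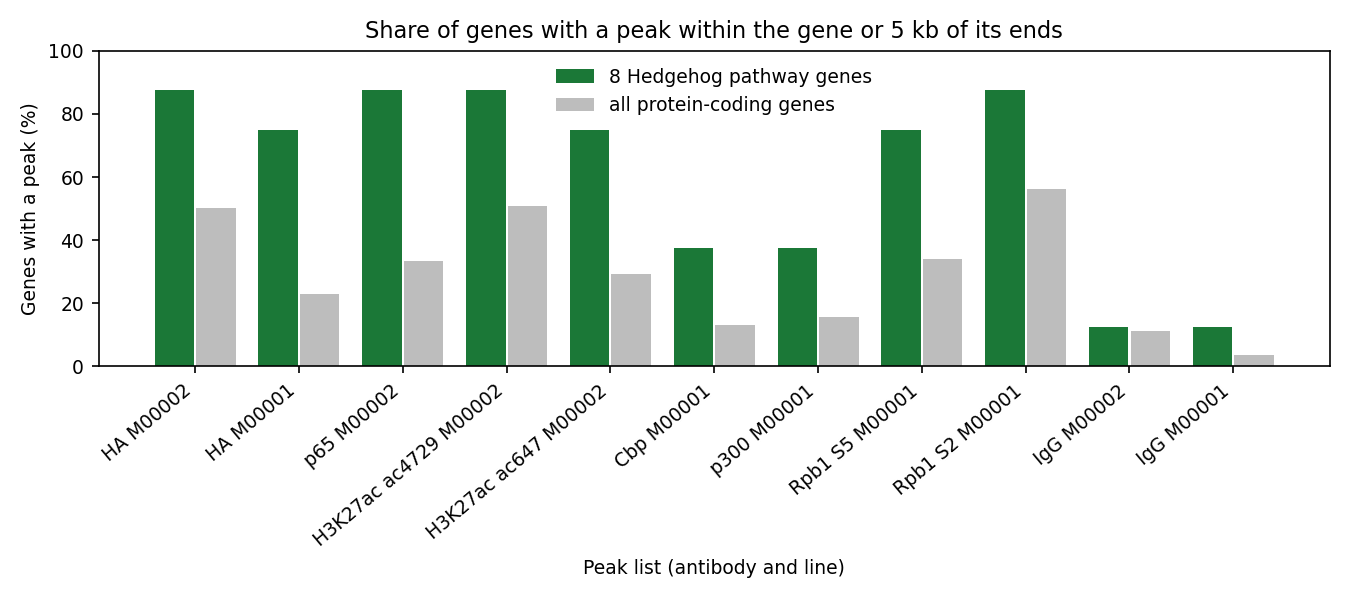
Bars give the percent of genes with at least 1 peak within the gene or 5 kb of its ends, for the 8 Hedgehog pathway genes (green) beside all protein-coding genes (grey), in each of the 11 lists. The green bar is the taller in every list, with 7 of 8 beside 50.2% for HA of M00002 and 1 of 8 beside 11.2% for IgG of M00002. The grey bars are not matched for gene length. Of genes of 50 to 100 kb, 64.9% had a peak of HA of M00002 and 17.3% of IgG of M00002. Of genes of 100 to 300 kb, 78.4% and 30.2% had one.

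Gene length moved with these shares, and most members are long. Gli2 (220 kb) and Gli3 (266 kb) belong with genes of 100 to 300 kb, of which 78.4% had an HA peak in M00002, 39.0% in M00001 and 34.9% an IgG-free HA peak in both lines. Ptch1, Boc, Hhip and Sufu belong with genes of 50 to 100 kb, where those shares were 64.9%, 29.4% and 25.3%. For Smo, among genes of 20 to 50 kb, they were 54.9%, 24.2% and 20.7%. For Gli1, among genes up to 20 kb, they were 38.5%, 16.7% and 14.5%. The length-matched HA shares therefore stood closer to the member counts than the shares of all genes did. In the bands of 50 to 100 kb and 100 to 300 kb, p65 lay at 43.7% and 55.3% of genes. There ac4729 lay at 67.8% and 75.2%, ac647 at 40.9% and 53.0%, S5 at 43.8% and 47.9%, and S2 at 70.3% and 69.1%. For p300 they were 21.6% and 31.8%, and for Cbp 19.3% and 29.0%. Per 100 kb of window the members held 4.53 HA peaks in M00002, against 1.80 for all genes, and 1.29 HA peaks in M00001, against 0.525. The same measure was 2.59 against 0.972 for p65, 5.82 against 1.93 for ac4729 and 3.77 against 1.03 for ac647. It was 0.863 against 0.748 for S5, 0.647 against 0.336 for p300 and 0.431 against 0.276 for Cbp. For S2 it was 4.21 against 1.83. IgG of M00002 gave 0.108 against 0.238 and IgG of M00001 0.108 against 0.0645, each from 1 peak at Smo.

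**Figure D2:**
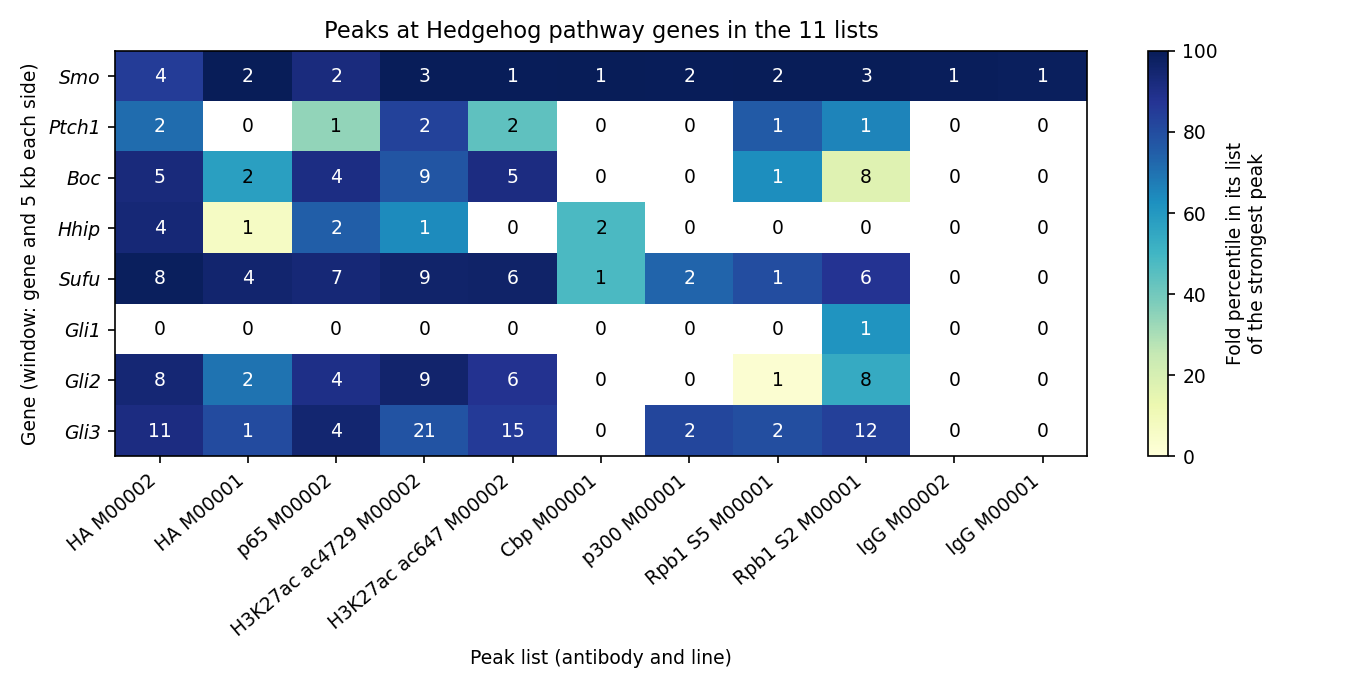
Each cell gives the number of peaks of 1 list (columns) at 1 Hedgehog pathway gene (rows), within the gene or 5 kb of its ends. Colour gives the percentile of fold enrichment, within that list, of the strongest of them, and white cells hold 0 peaks. Over the 11 lists together Gli1 has 1 peak, in S2, and Gli3 has 68, and the 1 gene with IgG peaks is Smo.

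Smo, the membrane protein that passes the Hedgehog signal into the cell, had 20 of its 22 peaks at 2 places of unlike kind. Smo lies on chromosome 6 at 29735497 to 29761366 on the plus strand, and its window overlaps that of Ahcyl2. The start site held the promoter shown above and had 0 IgG peaks in either line. Fold enrichment, the authors' ratio of signal over the peak caller's background at the summit, was 9.55 and 4.70 for a pair of HA peaks of M00002 and 4.48 for an HA peak of M00001. The first of the pair, at 29735389 to 29735542, had its summit 0.051 kb upstream of the start. At the same place the fold was 10.0 for p65, 7.39 for ac4729, 4.06 for p300, 3.91 for S5 and 4.58 for S2. The start of Smo thus carried HA in both lines together with p65, acetylated histone and polymerase peaks, while ac647 and Cbp had 0 peaks there.

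The other place lay 12.9 kb inside Smo and had a peak in all 11 lists, both IgG controls included. Its HA peaks had folds of 8.83 and 5.08 in M00002 and 34.6 in M00001, where the peak spanned 29747856 to 29749004. The fold was 28.1 in IgG of M00002 and 26.7 in IgG of M00001. It was 11.7 for p65, 11.5 for ac4729, 26.3 for ac647, 30.8 for Cbp and 28.3 for p300, and 29.4 with each Rpb1 antibody. In 10 lists, HA of M00002 being the exception, the highest peak of Smo was thus at a place where IgG also gave a peak, and its single Cbp and ac647 peaks were there too. Over the genome 173 of 8504 HA peaks of M00001 (2.03%) overlapped peaks of all 10 other lists, and the Smo site ranked 24 among them by HA fold. The remaining Smo peaks were ac4729 of fold 3.11 at 29736684 to 29736889 and S2 of fold 3.74 at 29758438 to 29758713. All 12 member peaks that were IgG peaks or overlapped one were at this place, of 226 member peaks in all.

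**Figure D3:**
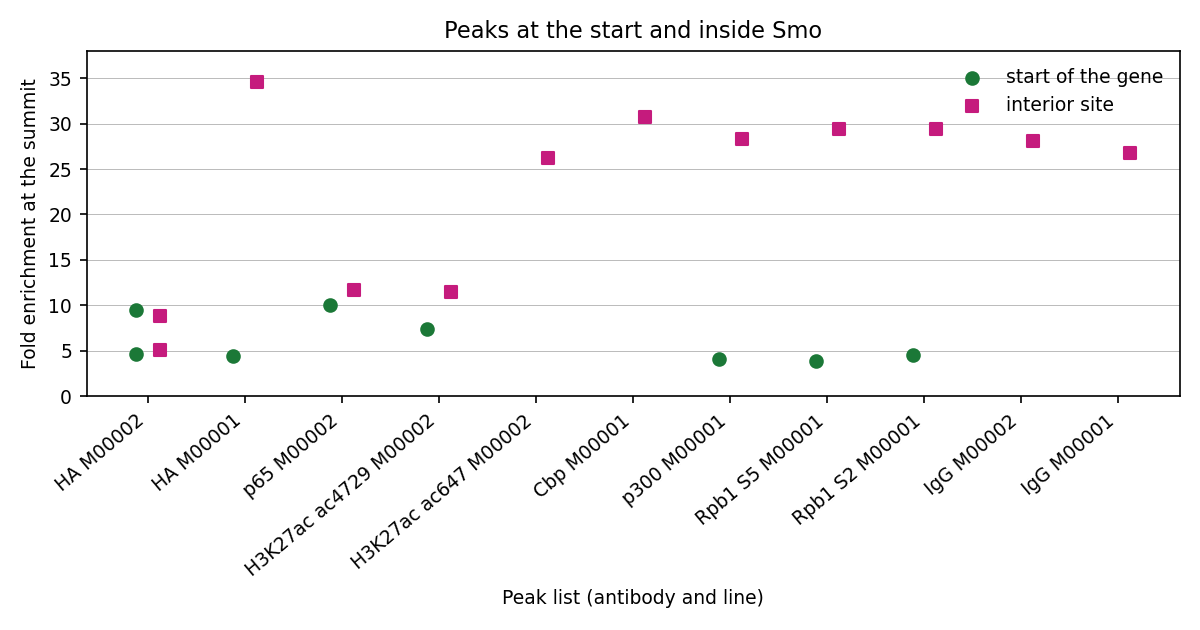
Points give the authors' fold enrichment at the summit for peaks at the start of Smo (circles) and at the site 12.9 kb inside it (squares), in each of the 11 lists. The inside site is present in both IgG lists at 28.1 and 26.7, while the start of the gene has 0 peaks in IgG.

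Ptch1, the receptor for Hedgehog ligands and a target gene of the pathway, had the thinnest HA signal among the members that had any. It lies on chromosome 13 at 63508328 to 63573460 on the minus strand. M00002 had HA peaks of fold 6.72 at 63514687 to 63514774 and 6.02 at 63553660 to 63553812, and M00001 had 0. The first overlapped both H3K27ac peaks (4.13 with ac4729 and 4.04 with ac647), and the second overlapped no peak of another list. The p65 peak, of fold 3.99 and a −log10 q of 1.74, lay apart from both at 63573464 to 63573553. That is 0.004 kb outside the high-coordinate end of the gene, which is its upstream end. The annotated start used for the promoter lies inside the gene at 63565735, and beside it ac4729 had a peak of fold 5.17 at 63564078 to 63565125, with ac647 at 3.46. Rpb1 peaks of fold 5.096 with S5 and 4.53 with S2 lay at 63567816 to 63568289, upstream of that start. Ptch1 thus had acetylated histone and polymerase peaks near its start with HA elsewhere in the gene and in 1 line.

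Boc, a coreceptor that presents the ligand to Ptch1, had its strongest HA peak inside the gene. Boc spans 44485045 to 44558870 on chromosome 16, and its window overlaps that of Cfap44. At 44530140 to 44530433 the HA fold was 12.9 in M00002 and 4.88 in M00001, with p65 at 11.05, ac4729 at 4.81 and ac647 at 6.89. At 44494604 to 44494768 HA had a fold of 5.59 in M00002 and 3.48 in M00001. Both H3K27ac antibodies, S5 (4.58) and S2 (2.92) had a peak there as well, and p65 did not. The M00001 peak there had a −log10 q of 0.750, so it passed the list's p-value threshold but would not pass a q threshold of 0.05. At the high-coordinate end, 44558185 to 44558501, M00002 had an HA peak of 8.82 with p65 at 4.65 and both H3K27ac antibodies, and M00001 had none. Of the places beyond the window, the strongest by HA was at 44579611 to 44579904, 20.7 kb past the high-coordinate end. There HA of M00002 reached 17.2 with p65 at 12.2 and peaks of both H3K27ac antibodies, and HA of M00001 had no peak. Boc had 8 S2 peaks, all low in their list, the highest at a fold of 2.92 and the percentile 16.8.

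Hhip, a membrane protein that binds and holds back Hedgehog ligands, had HA peaks with little histone acetylation. Hhip spans 79965850 to 80058060 on chromosome 8 on the minus strand. Its strongest HA peak in M00002, of fold 13.8 at 80040643 to 80040846, lay 17.3 kb downstream of the start and overlapped p65 at 7.19. An ac4729 peak of 4.37 lay beside it without overlapping, at 80040381 to 80040573. It was the 1 H3K27ac peak of the gene. The HA peak seen in both lines was another, at 79982659 to 79982821, with a fold of 5.98 in M00002 and 2.98 in M00001, where its −log10 q was 0.110. Weak Cbp peaks of fold 3.43 and 3.09 lay away from HA. S2, S5, p300 and ac647 had 0 peaks at Hhip.

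Sufu, which holds Gli proteins in the cytoplasm, had the highest HA fold of any IgG-free peak within the members' windows, in both lines. Sufu spans 46396896 to 46488804 on chromosome 19 on the plus strand, and its window overlaps that of Actr1a. HA reached a fold of 20.3 in M00002 and 11.3 in M00001 at a site 52.6 kb downstream of the start, 46449411 to 46449583. Within their lists these folds were at the percentiles 98.4 and 95.05. The same site had p65 at 12.6 and ac4729 at 3.38, and 0 peaks of ac647, Cbp, p300, S5 and S2. At 46484149 to 46484659, 87.4 kb downstream of the start, HA was 10.998 in M00002 and 9.77 in M00001. That site carried more of the other lists, with p65 at 9.96, ac647 at 8.85, ac4729 at 4.63, p300 at 4.49 and S2 at 3.60. Another shared site at 46477481 to 46478059 had HA at 6.87 in M00002 and 3.32 in M00001. Its M00001 peak was weak, with a −log10 q of 0.750, and so was its p65 peak (fold 3.49, −log10 q 0.819). The 3 shared sites thus differed in company: the last-named and the one of highest HA fold had ac4729 alone of the H3K27ac pair and no polymerase peak.

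Further HA peaks of Sufu were called in M00002 and not in M00001. The highest, 15.2 at 46406615 to 46406818, lay 9.85 kb downstream of the start with p65 at 9.60, ac647 at 8.25 and ac4729 at 6.68. Just upstream of the start, at 46396707 to 46396855, HA was 6.52, and it overlapped peaks of p65 (4.18), ac4729 (3.33) and S2 (4.66) that reached into the gene. A peak of 10.6 at 46395163 to 46395287 lay 1.67 kb upstream, inside the neighbouring gene Actr1a, with p300 at 4.08, S5 at 5.42 and S2 at 6.36. Whether that peak belongs with Sufu or with Actr1a cannot be told from these lists. Between 5 and 25 kb from the gene, HA of both lines met at 46375569 to 46375789 (13.6 in M00002 and 8.30 in M00001), which is 0.315 kb from Mfsd13a. They also met at 46503754 to 46504556 (10.96 in M00002 and 9.31 in M00001), which is inside Trim8. IgG had 0 peaks in or near Sufu in either line.

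Gli1, an activator that is also a widely used readout of the pathway, was the exception among the members. The gene spans 11.7 kb on chromosome 10, 127329882 to 127341579. Over the 11 lists together it had 1 peak, S2 of fold 4.33 at 127338792 to 127339249. Its −log10 q was 5.26. HA, p65, H3K27ac, Cbp, p300 and S5 had 0 peaks, where 38.5% of genes up to 20 kb had an HA peak in M00002. The windows of Arhgap9 and Inhbe overlap that of Gli1. The nearest HA peak, of fold 5.00 in M00002 at 127311707 to 127311813, was 18.1 kb below the gene inside Mars1, with ac4729 at 6.64, S5 at 4.00 and S2 at 5.40.

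Gli2, the main activator among the Gli proteins, had its HA peaks inside the gene and none at its start. Gli2 spans 118834061 to 119054405 on chromosome 1 on the minus strand, and no other gene's window overlaps its own. At 118910690 to 118910903 HA was 11.2 in M00002 and 5.80 in M00001, with p65 at 10.9, ac647 at 5.98, ac4729 at 4.78 and S2 at 3.77. Next to it, at 118911240 to 118911503, M00002 alone had an HA peak of 14.2 with p65 at 9.82. At 118982620 to 118983076 HA was 9.15 in M00002 and 5.66 in M00001, with p65 at 8.65, ac4729 at 5.42, ac647 at 5.33 and S2 at 3.74. Both shared sites of Gli2 thus carried the same set of lists, and each was over 70 kb downstream of the start (143 and 71.0 kb). The remaining 5 HA peaks of M00002 had folds of 2.99 to 5.23. At the start shown above, S2 had a peak of 3.86 and ac4729 one of 3.01, and HA had 0. An IgG peak of M00001, of fold 4.05, lay 10.7 kb past the high-coordinate end, away from every peak named here.

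Gli3, which is cleaved into the main repressor of the pathway, had the most peaks of any member, 68 over 8 lists. Gli3 spans 15463723 to 15730026 on chromosome 13 on the plus strand. Its shared HA site inside the gene, at 15692405 to 15692680, was 229 kb downstream of the start. HA there was 12.2 in M00002 and 6.99 in M00001, with p65 at 13.4, ac647 at 5.94, p300 at 4.97 and ac4729 at 3.38. A site of M00002 alone, 15624820 to 15625034, had HA at 11.2, S2 at 5.87, S5 at 5.06, ac647 at 5.02, ac4729 at 4.92 and p65 at 4.79. At the start HA of M00002 was 7.65 and, a little upstream, 5.05. S2 had a peak of 3.81 over the start, p300 one of 3.60 just upstream, and p65 a weak one of 3.57 (−log10 q 0.960). H3K27ac peaks next to the HA peaks stayed at or below 3.28. The acetylated sites of highest fold in Gli3 were thus inside the gene and not at its start.

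The IgG-free site of highest HA fold near any member lay 11.9 kb past the end of Gli3, at 15741507 to 15742078, with 0 IgG peaks. HA was 23.9 in M00002 and 13.8 in M00001, at the percentiles 99.4 and 97.4 of their lists. p65 was 21.6, ac647 9.32, ac4729 5.72, Cbp 5.17, p300 5.08, S5 5.17 and S2 4.69, so all 9 lists other than IgG had a peak. The nearest other protein-coding gene, Inhba, was 262 kb away. The site is outside the 5 kb window and adds nothing to the counts above. Which gene it acts on was not tested.

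**Figure D4:**
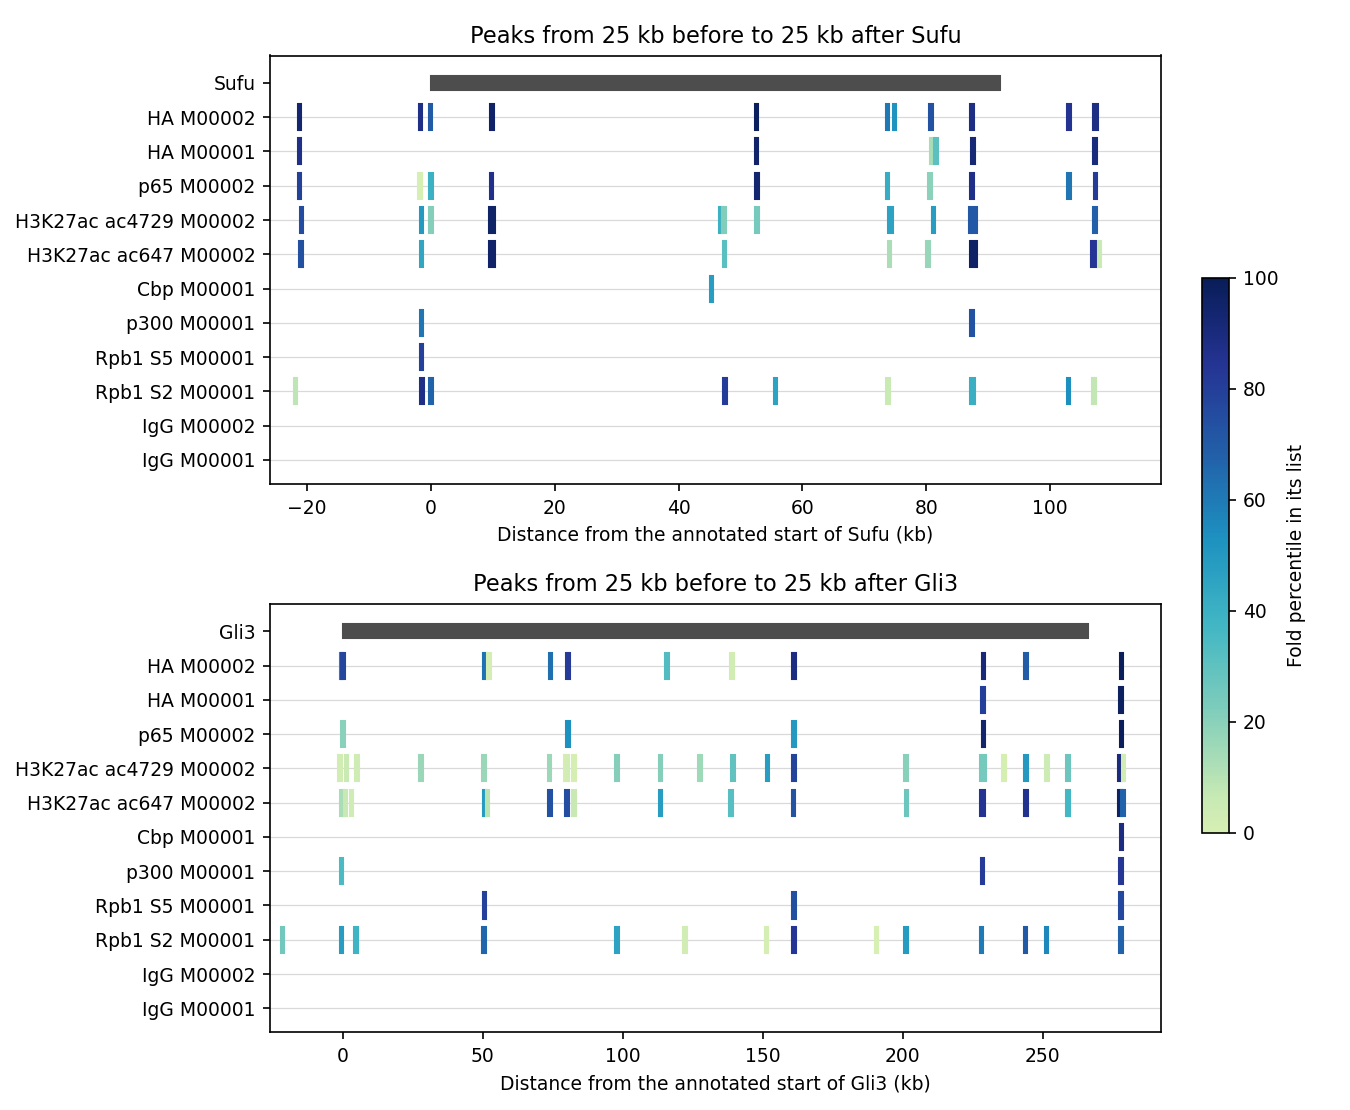
Maps run from 25 kb before to 25 kb after Sufu (top) and Gli3 (bottom), with distance from the annotated start in kb, the gene as a grey bar and 1 row per list. Each mark is a peak, widened to be visible, and its colour is the fold percentile within its list. The HA rows of both lines meet 52.6 kb into Sufu and 11.9 kb past the end of Gli3, and the IgG rows are empty.

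Across the members, HA peaks of both lines met at 11 sites in the windows, of which 10 were free of IgG, and at 3 more sites between 5 and 25 kb. Of the 10, p65 had a peak at 8, ac4729 at 9 and both H3K27ac antibodies at 6. S2 had a peak at 5 of the 10, p300 at 3, S5 at 2 and Cbp at 0. At the 3 sites beyond the windows, p65 and both H3K27ac antibodies had a peak at all 3. The IgG-free shared sites in the windows thus mostly came with p65 and ac4729, and the 1 shared site in the windows with Cbp was the one inside Smo that IgG also marked. The same shares over all sites of the genome with HA in both lines were not computed. These counts are therefore not shown to be particular to the members. Apart from Smo, where 1 lay at the start, the shared sites in the windows were away from annotated starts, with Boc not assessed since its strand was not at hand.

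**Figure D5:**
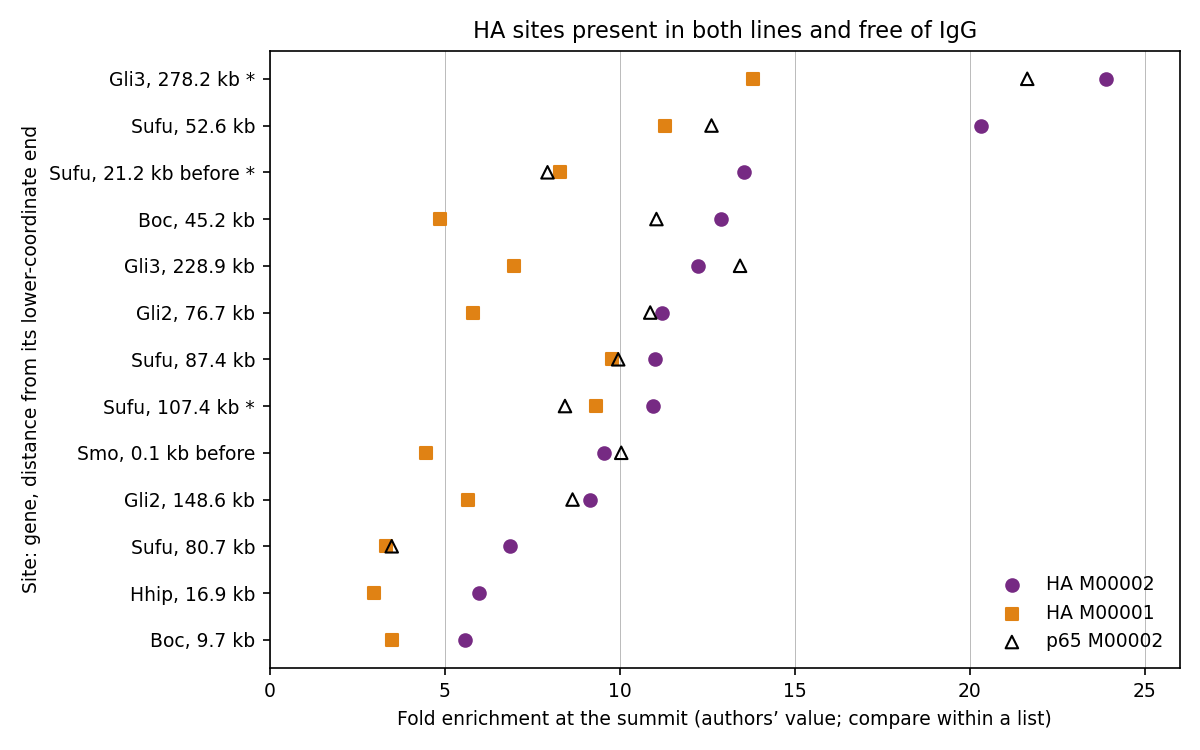
Points give the authors' fold enrichment of HA of M00002 (circles), HA of M00001 (squares) and p65 of M00002 (triangles) at the 13 IgG-free sites with HA in both lines. Sites are named by gene and by distance from its lower-coordinate end, "before" means outside that end, and * marks the 3 sites 5 to 25 kb outside the gene. The top site is that past Gli3, with HA at 23.9 in M00002 and 13.8 in M00001, and values are to be read within a list, not across lists.

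The same overlaps were set beside all HA peaks, with at least 1 shared base and exact Clopper-Pearson 95% intervals that cover counting error over peaks only. All HA peaks include those outside gene windows, while member peaks lie in such windows by definition. Location and membership therefore cannot be told apart here. Of 42 member HA peaks of M00002, 13 (31.0%, 17.6 to 47.1) overlapped HA of M00001, beside 16.9% of all HA peaks of M00002. With p65 20 overlapped (47.6%, 32.0 to 63.6, beside 33.7%). Of the M00002 lists, those of H3K27ac were where the members stood farthest from all HA peaks. There 28 overlapped ac4729 (66.7%, 50.5 to 80.4, beside 37.0%) and 22 overlapped ac647 (52.4%, 36.4 to 68.0, beside 22.3%). Of the 12 member HA peaks of M00001, 11 (91.7%, 61.5 to 99.8) overlapped HA of M00002, beside 55.4% of all. In the same 12, p300 overlapped 4 (33.3%, beside 23.2%), S2 6 (50.0%, beside 43.2%), S5 3 (beside 30.0%) and Cbp 1 (8.33%, beside 17.1%). Member HA peaks that overlapped IgG, all inside Smo, were kept: 2 of the 42 and 1 of the 12. The 1 of M00001 is in each count of that line, and the Cbp count is that peak alone. Peaks of a gene share that gene and are no replicates, so no test was made.

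The other genes of the pathway were 31 in a list of ligands, receptors, ciliary regulators, kinases, Gli turnover factors and targets. HA peaks lay at 24 of the 31 in M00002 (50.2% of all genes) and at 11 in M00001 (22.8%), and 10 of 31 had an IgG-free HA peak in both lines, beside 19.9% of all genes. p65 lay at 13 of 31 (33.5% of all genes), ac4729 at 18 (50.9%) and ac647 at 11 (29.2%). S2 lay at 22 (56.3%), S5 at 14 (33.9%), p300 at 8 (15.8%) and Cbp at 4 (13.1%), the last a share close to that of all genes. IgG lay at 5 in M00002 (11.2%) and 4 in M00001 (3.5%). The difference between the members and this list was not tested.

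By role, the 10 genes with IgG-free HA in both lines held 3 of 6 genes for ligands and their release. These were Hhat, which acylates the ligand, and Disp1 and Scube2, which release it, and none encodes a ligand. Of the 4 receptor genes, 1 (Lrp2) was among the 10. None of the 5 ciliary regulators was among them (0 of 5). Also among the 10 were 2 of 5 kinase genes, Prkaca and Gsk3b, which phosphorylate Gli proteins. So were 1 of 3 turnover genes, Btrc, and 3 of 8 targets, Ccnd2, Foxf1 and Sfrp1. Of all genes, 19.9% had an IgG-free HA peak in both lines. Each role holds few genes, and a difference between roles, or from that share, was not tested. The 4 highest by mean HA percentile were Gsk3b, with HA at 15.3 in M00002 and 10.7 in M00001, Prkaca (12.6 in M00002 and 8.21 in M00001), Scube2 (13.5 in M00002 and 3.98 in M00001) and Btrc (7.35 in M00002 and 4.48 in M00001). In M00001 the −log10 q of the best HA peak was 0.110 at Disp1, 0.750 at Lrp2, Foxf1 and Sfrp1, 1.36 at Hhat and 1.52 at Scube2. In M00002 it was 0.483 at Sfrp1 and 1.46 at Lrp2. With a −log10 q of at least 2, the count with IgG-free HA in both lines fell from 10 to 4. The ligand gene Shh, like Ihh and Dhh, had 0 HA peaks in both lines, as did the target Olig2. IgG peaks also lay in the windows of Hhat, Disp1 and Scube2 in M00002, and of Hhat and Prkaca in M00001, without overlapping the HA peaks of that line that were counted. The ligand genes are short, with Shh at 10.3 kb, Ihh at 6.36 kb and Dhh at 16.9 kb, while Hhat spans 258 kb, Disp1 135 kb and Scube2 67.0 kb, and length moved with the share of genes that had HA.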

How the data were processed

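CUT&RUN was measured in 11 libraries from 2 tumour-derived mouse lines, 1 library per antibody and line, and each was deposited as its own peak list, so replicates were not pooled. Per the submitters' processing notes, the build was mm10 and the tools were Bowtie2 2.3.5.1, Trim Galore, FastQC, deepTools and MACS2. The settings and the control used in calling were not given in those notes. Each deposited line holds, in MACS2's column order, a score, a fold enrichment (a ratio over the caller's background), the −log10 of the p-value, the −log10 of the q-value and the distance from peak start to summit. The smallest deposited −log10 p-value was 3, so many listed peaks have weak q-values. A length mark stands in the names of the M00002 lists for HA and p65, and a code in the titles of 4 M00001 libraries (Cbp, p300 and both Rpb1). Neither is explained in the sources used here, so line, mark and preparation cannot be told apart for HA. HA and p65 of M00002 share the length mark, and their median peak widths were 116 and 119 bp. In the other lists these widths were 165 to 452 bp. The part of the mark in the overlap of HA with p65 was not tested.

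From these, peaks on chromosomes 1 to 19 and X were set against RefSeq genes of GRCm38.p6, 1 position per symbol. An overlap needed 1 shared base. Fold was ranked within its own list and not compared between lists as a change. No test was run, since no group has a replicate: counts of members stand beside the share of all protein-coding genes. Python 3.11.15, pandas 2.3.3, numpy 2.4.6, SciPy 1.17.1 and matplotlib 3.10.9 were used, and the overlap code was tested on simulated data. Strand came from the promoter table, which held 6 of the 8 members. The members and lists were chosen with earlier results of these data known. Named beyond the members were other pathway genes with IgG-free HA in both lines, the 4 of highest mean HA rank, and the 3 genes of most similar within-list percentiles for each member with peaks in at least 4 lists. Shh, Ihh, Dhh and Olig2 were named after their values were seen, and Nfkb2 was named outside these rules. Alternatives were other windows, IgG removal, q and fold thresholds, 50% overlap and windows of 250 bp on each side of the summit.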

Additional observations from a re-analysis of the deposited data

How the results depend on the processing

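Of 230 recomputed values over 39 results, 166 stayed within 1.5 times the count or within the interval and 64 moved. None moved with a 1 kb window, without peaks overlapping IgG, with 50% overlap, or with summit windows. The IgG lists have no value without IgG. Within 25 kb of the gene, members with IgG of M00001 became 2, and other pathway genes with HA of M00001 and with IgG-free HA in both lines became 17 each. Around the ends alone, members became 4 (HA of M00002, with and without IgG overlap), 2 (HA of M00001, with and without, HA in both lines, and S5), 3 (ac647), 1 (Cbp) and 0 (each IgG). The other pathway genes became 6 (HA of M00001), 5 (HA in both lines, and p300) and 1 (Cbp and each IgG). At a −log10 q of at least 2, members with Cbp became 1. Other pathway genes became 4 (HA of M00001, HA in both lines, and p300), 1 (Cbp) and 0 (each IgG). At 5 or more, members became 3 (HA of M00001), 2 (HA of M00001 free of IgG, and HA in both lines) and 1 (Cbp and p300). Other pathway genes became 12 (HA of M00002, and S2), 8 (p65), 7 (ac647), 4 (S5), 2 (HA of M00001, and HA in both lines) and 0 (Cbp, p300 and each IgG). Among the 2000 peaks of highest fold in each list, members became 3 (HA of M00002, with and without IgG overlap, HA of M00001, and ac4729), 2 (HA of M00001 free of IgG) and 1 (HA in both lines, Cbp, S5 and S2). Other pathway genes became 4 (p65 and S2), 3 (p300 and S5), 2 (HA of each line and each H3K27ac antibody) and 1 (Cbp, IgG of M00002, and HA in both lines). IgG of M00001 held 1592 peaks, fewer than 2000. Its counts could thus not move with this cut, though they are among the 166 that stayed. The cut also keeps a larger share of the shorter lists. With a q threshold in both lists, the member HA peaks of M00001 that overlapped HA of M00002 were 100% of 8 peaks (−log10 q of at least 2) and 100% of 4 (at least 5).

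No paired analysis was possible because every antibody and line has 1 library, so no replicate number is shared between samples of a group. Read depth is unknown, and a longer or deeper list can hold more weak peaks. A peak called in 1 line and not in the other is not shown to differ between them. Gene positions stand for all transcripts of a gene, and a peak in overlapping windows counts for each gene.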

Other observations

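For each member with peaks in at least 4 lists, the genes whose strongest peaks had the most similar percentiles were found over the 11 lists, by the mean absolute difference in percentile points. They share the libraries with the member. For Smo they were Sos2 (1.42), Ppp1r9a (1.45) and Gzmf (1.90), all with peaks in all 11 lists, IgG included. For Gli2 they were Npcd (1.48), Letm2 (2.06) and Cbx6 (2.83), and for Gli3 they were Cux1 (3.27), Tmed1 (3.42) and Lsm10 (4.07). For Ptch1 they were Fars2 (3.18), P4ha1 (4.19) and Setd7 (4.28). For Sufu they were Baalc (4.35), Alk (4.64) and Pwwp3a (4.70). Hhip was nearest to Atp9a (4.84), Fas (5.59) and Gm52612 (5.64), and Boc to Pcyt1b (5.05), Arhgef26 (5.76) and Gprc5a (6.09). Since both IgG lists enter the measure and Smo is high in both, its nearest genes had to be high in IgG too.

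Nfkb2, a gene of the NF-kappaB family, lies at 46300994 to 46312400 on chromosome 19, 84.5 kb from Sufu. Between them were 5 HA peaks of M00002 and 1 of M00001, which include HA peaks already described upstream of Sufu. No rate over like stretches of the genome was computed, and a link between the 2 genes was not tested.

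S2 peaks lay at 2 of 7 neural progenitor and radial glia markers (Nes and Vim), 2 of 5 leukocyte markers (Cd68 and Aif1), 0 of 3 endothelial markers and 0 of 3 markers of other tissues, beside 56.3% of all genes. S5 peaks lay at 3 of 7, 1 of 5, 0 of 3 and 1 of 3 of the same lists, beside 33.9% of all genes, the last being the heart gene Myh6.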
